A study of Mus musculus with 435 samples.

Results

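Liver RNA was compared between C57 mice fed a high-fat diet and C57 mice fed a low-fat diet, at weeks 5, 6 and 7. Each sample was hybridised on a spotted cDNA array against a common reference, so that every value is a ratio of liver over reference for 1 probe. The 58 arrays described here, of 435 in the series, were taken by title from the 60 arrays of C57 mice at these weeks. There were 30 high-fat arrays, 10 at each week, and 28 low-fat arrays, 10 at week 5, 8 at week 6 and 10 at week 7. Low-fat arrays 53 and 54 of week 6 were left out because their Pearson correlation with the median profile of all arrays was 0.0485 and 0.123, below the limit of 0.15. The kept array nearest to that limit, low-fat array 70 of week 7, stood at 0.328, and the highest at 0.758.

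By their labels the groups differ in diet and week, with no transgene, drug or surgery named. The labels give the strain as C57, with no substrain, sex, age or diet composition. RNA of the sampled liver carried Cy5 on every array, and Cy3 marked a pool of RNA from 10 tissues of C57 mice, of which liver itself is 1. A log2 ratio of 0 therefore means the level of the array's median probe relative to that pool, and a gene that only liver makes would lie above 0. The labels do not say which arrays share a mouse, so the p-values measure the spread between arrays, which may be technical.

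The liver takes up, makes, stores, burns and exports fatty acids. On a fat-rich diet fatty acids reach it from the gut and from adipose tissue, and lipid-sensing nuclear receptors such as PPARα switch on genes of fatty acid oxidation in mitochondria and peroxisomes. De novo synthesis of fatty acids runs from acetyl-CoA through acetyl-CoA carboxylase and fatty acid synthase, and desaturases and elongases then shape the products before they are joined to glycerol. C57 mice are widely used because they become obese and develop fatty liver on fat-rich diets.

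Hepatocyte genes stood above the reference on both diets. All 19 measured hepatocyte markers had a mean log2 ratio above 0 in each diet group, with a median of 0.93 for high-fat and 0.85 for low-fat arrays. Of 13 skeletal muscle markers 3 and 4 were above 0 on the high-fat and low-fat diets, with medians of -0.40 and -0.23. The lowest of them, the muscle actin Acta1, was at -2.88 and -2.30, and the highest values were 0.97 and 1.05. Other cell types were less clearly below the reference. Of 7 adipose markers 4 were above 0 on each diet, and of 13 macrophage and leukocyte markers 6 and 7. Each array measured between 3118 and 14929 of 17280 probe positions, and the week 6 arrays measured fewer, with a median of 7848.5 for high-fat and 8392 for low-fat arrays. The values are ratios and do not give the signal of a probe over background, and their precision is limited by how many arrays there are.

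Few genes passed the threshold for a difference between the diets. In whole liver a change in the number of cells of a type and a change of RNA per cell cannot be told apart. Of 7365 probes tested in limma, 15 passed an adjusted p of 0.05 (0.204%), 10 with higher values on high-fat (0.136%) and 5 with lower values (0.0679%). All 15 had the same sign of the difference at weeks 5, 6 and 7, as did 1955 (26.5%) of all probes tested. Since the 15 were picked on these same arrays, their shared sign is partly set by that choice. An unadjusted p under 0.05 was reached by 772 probes (10.5%), of which 375 (5.09%) were higher and 397 (5.39%) lower, and 47% of all differences were positive. With the 3 weekly means of each diet as the unit of replication in place of single arrays, limma called 0 probes, and 355 had an unadjusted p under 0.05. Without centring of the arrays the split was 5 higher and 6 lower, and the other alternatives are given with the dependence on processing.

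Of the enzymes that shape fatty acids, Scd1 had higher values in high-fat livers. Scd1 encodes stearoyl-CoA desaturase, which places a double bond in saturated fatty acids and so supplies the oleate and palmitoleate of stored triglyceride. Its log2 ratio at week 5 ran from 1.46 through a median of 2.17 to 3.57 on the high-fat diet (n = 10) and from -0.21 through 0.69 to 1.57 for low-fat arrays (n = 9). At week 6 it ran from 0.47 through 3.08 to 3.72 (n = 10) and from 0.15 through 0.55 to 1.70 (n = 6). At week 7 the ranges were 0.45 to 2.47 with a median of 1.27 (n = 9) and 0.23 to 1.63 with a median of 0.64 (n = 10). Of the 29 high-fat values 21 lay above every one of the 25 low-fat values. Against the low-fat values of the same week, 8 of 10 did so at week 5, 9 of 10 at week 6 and 4 of 9 at week 7. The difference was 1.38 ± 0.20 (SE), or 2.60-fold, between means of 2.16 ± 0.98 (SD, n = 29) and 0.71 ± 0.56 (SD, n = 25), with a limma adjusted p of 2.19e-05. It was 1.70 ± 0.32 at week 5, 2.01 ± 0.36 at week 6 and 0.55 ± 0.32 at week 7, and this change over weeks was not called (limma adjusted p = 0.244 for diet by week). Without week 5 the difference was 1.21 and missed the threshold (adjusted p = 0.0635), and without week 7 it was 1.85.

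Ehhadh, a gene of fatty acid breakdown, was also higher in high-fat livers. It encodes the peroxisomal bifunctional enzyme, which carries out the hydratase and dehydrogenase steps of peroxisomal beta-oxidation and is a known target of PPARα. At week 5 its log2 ratio ran from -0.18 through a median of 0.47 to 1.17 on the high-fat diet (n = 9) and from -1.13 through -0.15 to 0.22 on the low-fat diet (n = 9). At week 6 it ran from -0.58 through 0.17 to 0.90 (n = 8) and from -1.57 through -0.12 to 0.31 (n = 6). At week 7 it ran from -0.11 through 0.47 to 1.24 (n = 8) and from -0.69 through 0.01 to 0.42 (n = 9). The groups overlapped at each week, and 21 of 25 high-fat values lay above the low-fat median. The difference was 0.59 ± 0.13 (SE), or 1.5-fold, with means of 0.38 ± 0.42 (SD, n = 25) and -0.19 ± 0.47 (SD, n = 24) and a limma adjusted p of 0.0183. It was even over the weeks, at 0.69 ± 0.21, 0.50 ± 0.24 and 0.54 ± 0.22. The call was lost without week 5 (0.54, limma adjusted p = 0.283), week 6 (0.61, adjusted p = 0.0591) or week 7 (0.62, adjusted p = 0.0960), without centring (0.51, adjusted p = 0.118) and with centring on all measured probes (0.55, adjusted p = 0.0589). It was also lost with all 60 arrays (0.49, limma adjusted p = 0.264), with the replicate block (0.69, adjusted p = 0.0821) and with weekly means, and kept in 8 of 16 alternatives.

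**Figure D1:**
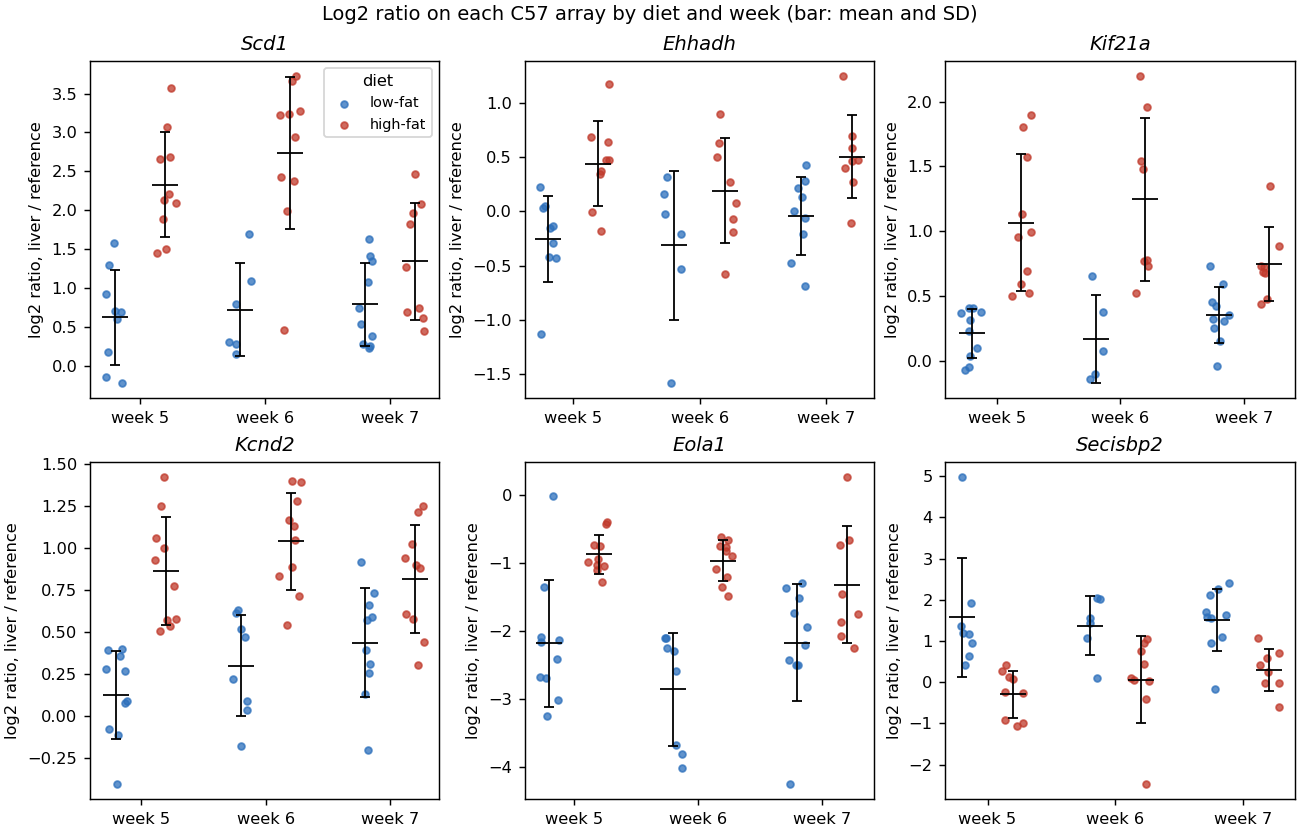
Log2 ratio of liver over reference on each C57 array (points) for 6 genes, by week, in blue for low-fat and in red for high-fat arrays, with the mean and SD as bars. At week 5 all high-fat values of Kif21a and Kcnd2 lie above all low-fat values and all those of Secisbp2 below them, and at week 7 the groups overlap for each of the 6 genes. The genes were picked on these same arrays, which partly sets how far their values stand apart.

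The other enzymes of these pathways were read from lists of genes. Of 15 tested genes of fatty acid and triglyceride synthesis Scd1 alone passed, and 8 of 15 differences were positive, with a median of 0.06 against -0.01 over all 7017 genes tested. Fasn, the fatty acid synthase, had a difference of -0.17 ± 0.10 (limma adjusted p = 0.582), and Acaca, the acetyl-CoA carboxylase that feeds it, one of -0.18 ± 0.18 (adjusted p = 0.767). The desaturases of polyunsaturated fatty acids, Fads1 (0.06) and Fads2 (-0.12), did not pass either. Agpat2, which adds the second fatty acid to glycerol phosphate, stood at 0.32 ± 0.12 (adjusted p = 0.266), and Dgat2, which completes triglyceride, at -0.01 ± 0.19. Mlxipl, whose protein ChREBP turns on lipogenic genes when glucose is high, stood at -0.10 ± 0.10.

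Of 20 tested genes of fatty acid oxidation and ketone bodies Ehhadh alone passed, while 14 of 20 differences were positive, with a median of 0.08. Cyp4a14, a fatty acid omega-hydroxylase, had the largest value at 0.84 ± 0.30, with means of 0.15 ± 1.04 (SD, n = 21) and -0.66 ± 1.07 (SD, n = 25), and did not pass (limma adjusted p = 0.254). Cpt1a and Cpt2, which move long-chain fatty acids into mitochondria, stood at 0.34 ± 0.19 and 0.31 ± 0.12. The mitochondrial dehydrogenases ran from 0.25 for the short-chain Acads through 0.03 for the long-chain Acadl to -0.01 for the very-long-chain Acadvl. Peroxisomal thiolase Acaa1a stood at 0.07 ± 0.12 and the peroxisome proliferation gene Pex11a at -0.15 ± 0.12, so that among the peroxisomal genes tested Ehhadh was the 1 that passed. The fasting hormone gene Fgf21 stood at -0.06 ± 0.08.

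For fatty acid uptake and storage 0 of 11 genes passed, and 6 of 11 differences were positive with a median of 0.10. The fatty acid binding proteins Fabp2 of the gut (0.48 ± 0.15, adjusted p = 0.191) and Fabp4 of adipose tissue and macrophages (0.49 ± 0.17, adjusted p = 0.233) had the largest values in limma. Plin2, the coat protein of liver lipid droplets, stood at -0.05 ± 0.29, Cidec, which enlarges droplets, at 0.14 ± 0.12, and the triglyceride lipase gene Pnpla2 at -0.15 ± 0.08. Of the cholesterol genes only 2 were tested, Fdft1 (0.05 ± 0.18), the squalene synthase, and Ebp (-0.03 ± 0.11), a sterol isomerase. Of 14 genes of apolipoproteins and lipoprotein handling 0 passed, with a median of 0.02, and of 8 bile acid genes 0 passed, with 7 positive and a median of 0.10. The largest values there, singled out after they were seen, were those of Apoa5 (0.68 ± 0.19, limma adjusted p = 0.140), which lowers plasma triglyceride, Apoc3 (0.35 ± 0.10, adjusted p = 0.15), which raises it, and the sterol exporter gene Abcg5 (0.50 ± 0.20, adjusted p = 0.319).

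**Figure D2:**
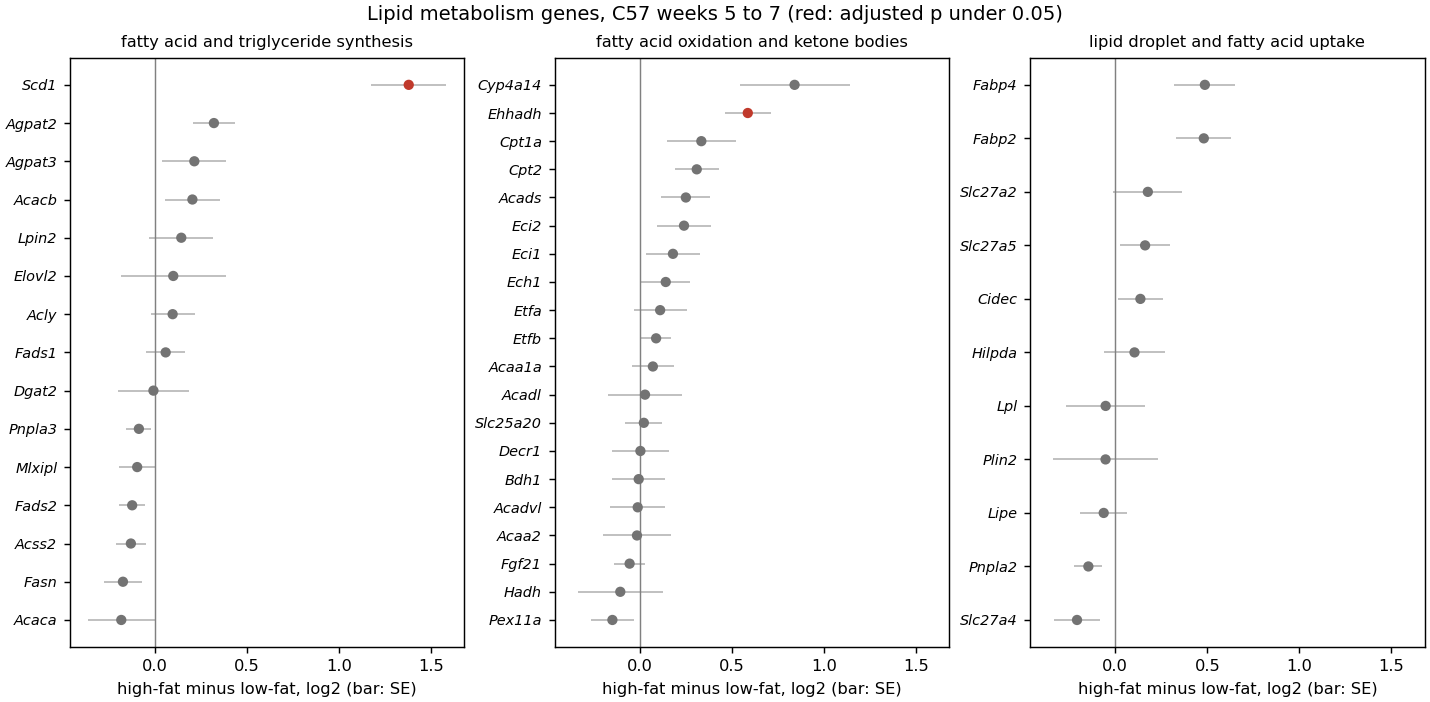
High-fat minus low-fat log2 difference over weeks 5 to 7, with its SE, for each tested gene of fatty acid synthesis (15 genes), fatty acid oxidation (20) and lipid droplets and uptake (11), with genes past an adjusted p of 0.05 in red. Scd1 at 1.38 and Ehhadh at 0.59 are the 2 red points, and apart from Cyp4a14 at 0.84 the remaining points run from -0.21 to 0.49.

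Secisbp2 had the lowest difference among the 15. Its protein binds the SECIS hairpin of selenoprotein mRNAs and lets the ribosome read UGA as selenocysteine. At week 5 its log2 ratio ran from -1.07 through a median of -0.24 to 0.41 on the high-fat diet (n = 9) and from 0.43 through 1.18 to 4.97 on the low-fat diet (n = 8), with no overlap. At week 6 it ran from -2.46 through 0.11 to 1.05 (n = 9) and from 0.11 through 1.5 to 2.04 (n = 6), and at week 7 from -0.60 through 0.33 to 1.06 (n = 8) and from -0.15 through 1.61 to 2.41 (n = 10). All 26 high-fat values lay below the low-fat median. The difference was -1.47 ± 0.24 (SE), 2.77-fold lower, with means of 0.01 ± 0.77 (SD, n = 26) and 1.5 ± 0.99 (SD, n = 24) and a limma adjusted p of 0.000248. Of the 23 tested antioxidant and selenoprotein genes it was the 1 that passed, and 13 differences were positive, with a median of 0.01. The selenoprotein gene Gpx1, a glutathione peroxidase, stood at -0.34 ± 0.27 (adjusted p = 0.70), Selenot at 0.54 ± 0.18 (adjusted p = 0.229) and Selenow at -0.14 ± 0.17, named here after their values were seen.

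Fmo5, a flavin-containing monooxygenase of the endoplasmic reticulum, was higher in high-fat livers by 0.53 ± 0.12 (limma adjusted p = 0.0199). At week 6 its values did not overlap, at 0.55 to 2.51 (n = 8) against -0.79 to 0.32 (n = 7), whereas at week 7 they ran from 0.26 to 1.25 (n = 9) and from 0.22 to 1.30 (n = 10). The weekly differences were 0.58 ± 0.18, 1.00 ± 0.20 and 0.12 ± 0.18. It was the 1 of 31 tested genes of xenobiotic metabolism that passed. That list had a median of 0.03, with 18 positive. Without week 5 (0.51, limma adjusted p = 0.302) or week 6 (0.34, adjusted p = 0.570) Fmo5 did not pass.

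Eola1, which encodes a small ASCH-domain protein, was higher in high-fat livers and lay below the reference in nearly every array. On the high-fat diet its log2 ratio ran at week 5 from -1.27 through a median of -0.96 to -0.40 (n = 10), at week 6 from -1.49 through -0.86 to -0.62 (n = 10) and at week 7 from -2.25 through -1.60 to 0.26 (n = 8). The low-fat values ran from -3.25 through -2.29 to -0.01 (n = 10), from -4.01 through -2.44 to -2.09 (n = 8) and from -4.24 through -2.07 to -1.29 (n = 10). All 10 high-fat values of week 6 lay above all 8 low-fat values, and at week 5 a single low-fat array lay above all high-fat ones. The difference was 1.35 ± 0.19 (SE), or 2.55-fold, between means of -1.03 ± 0.53 (SD, n = 28) and -2.37 ± 0.90 (SD, n = 28), with a limma adjusted p of 9.33e-06. Without week 6 it was 1.09 (adjusted p = 0.0591).

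Kif21a encodes a kinesin that moves along microtubules and slows their growth. At week 5 it ran from 0.50 through a median of 0.97 to 1.90 on the high-fat diet and from -0.07 through 0.27 to 0.40 on the low-fat diet, so that all 10 high-fat values lay above all 10 low-fat values. At week 6 it ran from 0.53 through 1.13 to 2.19 (n = 8) and from -0.14 through 0.07 to 0.65 (n = 5), and at week 7 from 0.44 through 0.70 to 1.35 (n = 8) and from -0.04 through 0.34 to 0.73 (n = 10). Each of its 26 high-fat values exceeded the low-fat median. The difference was 0.74 ± 0.12 (SE), or 1.67-fold, between means of 1.02 ± 0.52 (SD, n = 26) and 0.26 ± 0.24 (SD, n = 25), with a limma adjusted p of 0.000101. Without week 5 it was 0.68 (adjusted p = 0.0863).

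Kcnd2, which encodes the voltage-gated potassium channel subunit Kv4.2 known from neurons and heart muscle, had the smallest p. On the high-fat diet its log2 ratio ran from 0.50 through 0.85 to 1.42 at week 5, from 0.54 through 1.09 to 1.40 at week 6 and from 0.30 through 0.89 to 1.25 at week 7 (n = 10 each). The low-fat values ran from -0.40 through 0.18 to 0.40 (n = 10), from -0.18 through 0.34 to 0.63 (n = 8) and from -0.20 through 0.48 to 0.92 (n = 10). All high-fat arrays of week 5 stood above all low-fat ones, as did 9 of 10 at week 6 and 4 of 10 at week 7. The difference was 0.61 ± 0.09 (SE), or 1.53-fold, between means of 0.91 ± 0.32 (SD, n = 30) and 0.29 ± 0.32 (SD, n = 28), with a limma adjusted p of 9.33e-06. Without week 5, 6 or 7 it was 0.56, 0.54 and 0.74, past the threshold each time.

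Of the 5 lower genes, Gabra3 and Galr3 encode receptors. Since the values do not give the signal over background, a ratio above 0 does not show that liver expresses these genes or Kcnd2. Gabra3, a subunit of the GABA-A receptor, ran from -1.33 through a median of 0.46 to 1.87 on the high-fat diet (n = 25) and from -1.01 through 1.43 to 2.50 on the low-fat diet (n = 27), a difference of -0.86 ± 0.20 (limma adjusted p = 0.0324). Galr3, a receptor of the neuropeptide galanin, ran from -0.22 through 0.65 to 1.57 (n = 30) and from -0.07 through 1.18 to 2.65 (n = 26), a difference of -0.54 ± 0.12 (adjusted p = 0.0199). Its difference was -0.15 ± 0.19 at week 5 and -0.91 ± 0.21 and -0.64 ± 0.19 at weeks 6 and 7. For both genes the groups overlapped over most of their range, and 22 of 25 and 28 of 30 high-fat values lay below the low-fat median. Gabra3 missed the threshold without any 1 week (limma adjusted p from 0.0973 to 0.253), and Galr3 without week 6 (-0.40, adjusted p = 0.588) or week 7 (-0.49, adjusted p = 0.173).

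The remaining genes with a known role act in autophagy, transcription, ribosome assembly and innate immunity. Ulk1, the kinase that starts autophagy, was higher by 0.39 ± 0.07 (limma adjusted p = 0.00233), with values from 0.34 to 1.51 (n = 30) against -0.24 to 0.98 (n = 28). Of its 30 high-fat values 28 lay above the low-fat median of all 3 weeks, and each lay above that of its own week. Zeb1, a zinc-finger repressor known from the epithelial to mesenchymal transition, was higher by 0.36 ± 0.07 (adjusted p = 0.00468), with values from 0.37 to 1.46 (n = 30) against -0.31 to 0.79 (n = 27). Ftsj3, a methyltransferase of ribosomal RNA processing, was lower by a log2 difference of -0.38 ± 0.09 (adjusted p = 0.0449), and Trim30a, a negative regulator of Toll-like receptor signalling, of -0.82 ± 0.18 (adjusted p = 0.0199, n = 22 each). Trim30a differed by -1.39 ± 0.29 at week 7, where high-fat values ran from -2.76 to 0.27 (n = 8) and low-fat values from -0.16 to 1.63 (n = 7), and by -0.56 ± 0.27 and -0.47 ± 0.34 at weeks 5 and 6. Of 17 genes of the interferon response and histocompatibility list 0 passed, with a median of 0.00. Ulk1 missed the threshold without week 5 (limma adjusted p = 0.0666) or week 6 (0.31, adjusted p = 0.310), Zeb1 (adjusted p = 0.242 and 0.305) and Ftsj3 (adjusted p = 0.262 and 0.615) likewise, and Trim30a without week 6 (adjusted p = 0.140) or week 7 (adjusted p = 0.156).

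The last 2 of the 15 are RIKEN cDNA genes with no role given here. 4930402H24Rik was higher by 0.54 ± 0.11 (limma adjusted p = 0.0167), with means of 0.32 ± 0.39 (SD, n = 27) and -0.18 ± 0.47 (SD, n = 25), and its second probe had too few values for a test. 1700018B08Rik was higher by 0.58 ± 0.13 (adjusted p = 0.0449), but its second probe stood at -0.16 (adjusted p = 0.746), so the probes of this gene disagree. Each of the other 13 genes had 1 probe with values. Just outside the threshold lay Coq2 (0.52, adjusted p = 0.0514), Zfp101 (1.07, adjusted p = 0.0522), Tnk2 (0.63, adjusted p = 0.0522) and, among lower genes, Crybb1 (-0.75, adjusted p = 0.0697), named for that place only. Without week 6 or week 7 neither RIKEN gene passed in limma (adjusted p from 0.156 to 0.570), and without week 5 4930402H24Rik did (adjusted p = 0.0406) and 1700018B08Rik did not (adjusted p = 0.0706). The call of 1700018B08Rik was lost in 12 of 16 alternatives, among them no centring (limma adjusted p = 0.137), all 60 arrays (0.42, adjusted p = 0.612), consecutive arrays averaged (adjusted p = 0.211) and the replicate block (adjusted p = 0.197).

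Promoter windows were looked up for the 15 genes that passed the threshold, to show what sequence lies before their start sites. They were matched by symbol for 12 of the 15, all but Scd1, Zeb1 and Galr3, in a table of RefSeq start sites on mouse assembly GRCm38.p6, and are the 250 bases before each start. The windows of 4 genes with different motif content are printed 5′ to 3′ on the gene's strand, with matches in capitals. Both strands were searched for the CCAAT box by those letters. Also searched was the GC box, which recruits factors of the Sp family, written GGGCGG. The E-box, a site known for basic helix-loop-helix factors, was searched as CACGTG. For the TATA box, where the general transcription machinery binds near some start sites, the letters TATAAA were used. A nuclear receptor half-site, the unit that receptors such as PPARα read in pairs, was searched as AGGTCA. The direct repeats of that half-site were searched as AGGTCANAGGTCA and as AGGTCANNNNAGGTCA, and the sterol regulatory element as TCACNCCAC. The half-site is part of both repeats, and no other printed matches overlap. Ehhadh lies at chr16:21787835-21788084 on the minus strand, Kif21a at chr15:91049952-91050201 on the minus strand, Secisbp2 at chr13:51651458-51651707 on the plus strand and Eola1 at chrX:70385663-70385912 on the plus strand.
Ehhadh: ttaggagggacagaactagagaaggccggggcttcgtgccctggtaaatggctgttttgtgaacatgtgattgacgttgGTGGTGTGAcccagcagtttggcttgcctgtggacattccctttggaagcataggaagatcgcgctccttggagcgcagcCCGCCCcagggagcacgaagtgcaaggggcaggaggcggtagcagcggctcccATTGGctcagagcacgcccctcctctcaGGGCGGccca
Kif21a: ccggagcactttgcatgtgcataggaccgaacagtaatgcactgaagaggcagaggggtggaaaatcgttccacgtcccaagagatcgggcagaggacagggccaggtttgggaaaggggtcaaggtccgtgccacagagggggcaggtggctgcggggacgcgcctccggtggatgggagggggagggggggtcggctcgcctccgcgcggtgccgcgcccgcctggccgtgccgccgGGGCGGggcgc
Secisbp2: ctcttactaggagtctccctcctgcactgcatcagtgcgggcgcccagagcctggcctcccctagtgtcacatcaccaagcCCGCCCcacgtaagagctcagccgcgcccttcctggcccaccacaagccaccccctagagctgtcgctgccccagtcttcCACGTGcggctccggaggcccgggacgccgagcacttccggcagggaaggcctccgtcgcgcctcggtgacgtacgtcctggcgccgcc
Eola1: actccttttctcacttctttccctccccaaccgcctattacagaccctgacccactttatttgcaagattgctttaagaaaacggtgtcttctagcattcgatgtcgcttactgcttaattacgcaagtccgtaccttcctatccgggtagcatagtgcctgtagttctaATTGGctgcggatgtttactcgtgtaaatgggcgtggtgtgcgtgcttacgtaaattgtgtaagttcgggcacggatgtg

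The Ehhadh window holds a sterol regulatory element at -171 to -163, written there as its complement GTGGTGTGA, 2 GC boxes and a CCAAT box as ATTGG. A sterol regulatory element of these letters is present in 1.05% of 32851 windows of the same length. The Kif21a window has a GC box at -11 to -6, a motif found in 32.7% of windows. In that of Secisbp2 there is an E-box at -89 to -84 (6.02% of windows) and a GC box as CCGCCC. The Eola1 window has a CCAAT box as ATTGG at -80 to -76 (33.8% of windows). Neither direct repeat is found in any of the windows of the 12 genes, nor the half-site outside Trim30a. The repeats occur in 0.0335% and 0.0152% of all windows and the half-site in 14%. A match is a run of letters and no evidence of binding.

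The size of the differences varied over the 3 weeks. In a fit with a mean for each of the 6 groups limma called 3 of 7365 probes at week 5 (0.0407%), namely Scd1 (adjusted p = 0.0122), Kcnd2 (0.0138) and Kif21a (0.0412), with 525 (7.13%) at an unadjusted p under 0.05, and 0 at week 7, where 265 (3.6%) had an unadjusted p under 0.05. At week 6 it called 226 probes (3.07%), 99 higher (1.34%) and 127 lower, of which 10 were among the 15 and 93 had the same sign at all 3 weeks, and 1440 (19.6%) had an unadjusted p under 0.05. Fitted on the 18 arrays of week 6 alone limma called 1 of 5023 probes, Eola1 (1.94, adjusted p = 0.00265), with 766 at an unadjusted p under 0.05. The 20 arrays of week 5 alone gave 1 call of 9553, Scd1 (1.68, adjusted p = 0.0387), and those of week 7 alone 0 of 9420, with 488 at an unadjusted p under 0.05.

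**Figure D3:**
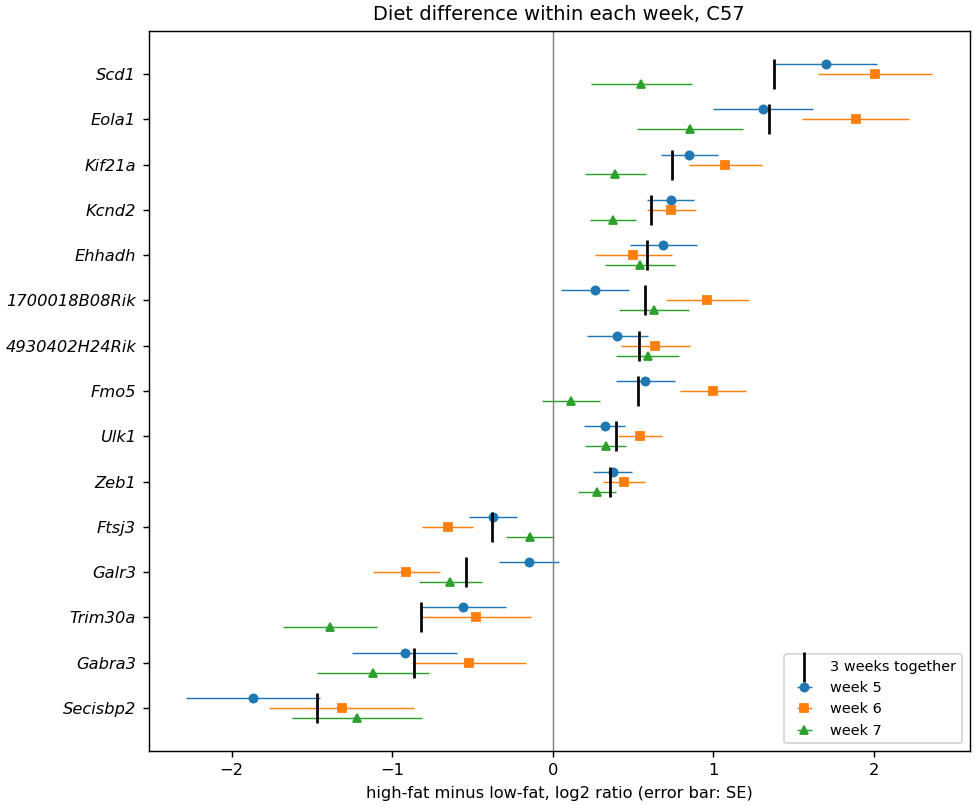
High-fat minus low-fat log2 difference of the 15 genes at week 5, week 6 and week 7, with its SE, and over the 3 weeks together (black bar). Every gene keeps its side of 0. The week 7 difference is the nearest to 0 for Scd1, Kif21a, Kcnd2, Fmo5, Eola1, Zeb1, Secisbp2 and Ftsj3. For the other genes that of week 5 or week 6 is, and for Trim30a and Gabra3 the week 7 difference is the farthest from 0.

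Whether the diet difference itself changed over the weeks was tested by the interaction of diet and week, in which limma found 2 of 7365 probes past the threshold (0.0272%) and 865 (11.7%) past an unadjusted p of 0.05. None of the 15 genes was among them, at adjusted p from 0.244 for Scd1 to 0.937 for Ehhadh in limma. The 2 calls, named after their values were seen, were Tiam1, an exchange factor for the GTPase Rac, and Grm8, a glutamate receptor. Tiam1 differed by -0.61 ± 0.20 at week 5, 0.74 ± 0.24 at week 6 and -0.87 ± 0.21 at week 7 (adjusted p = 0.0286). Grm8 differed by -0.26 ± 0.33, 2.96 ± 0.52 and 0.08 ± 0.33 (adjusted p = 0.0286), and its week 6 value rests on 3 high-fat arrays, from 0.27 to 2.99, and 4 low-fat arrays, from -2.36 to -0.65. Between single weeks limma called 1 probe for a change from week 5 to week 6 (0.0136%), again Grm8 (3.22, adjusted p = 0.0380), and 0 for the other pairs of weeks.

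The medians of 6 lists of lipid genes were followed over the weeks, and 4 of them were highest at week 6. The median difference of the fatty acid oxidation genes was 0.06 at week 5, 0.36 at week 6 and 0.00 at week 7, and that of the lipid droplet and uptake genes -0.10, 0.42 and -0.01. For bile acid genes it was 0.07, 0.51 and 0.01, and for fatty acid and triglyceride synthesis 0.03, 0.17 and -0.05. The apolipoprotein and lipoprotein genes were highest at week 5, with 0.17, 0.05 and -0.02, and the 2 cholesterol genes lowest at week 6, with 0.11, -0.23 and 0.08. The hepatocyte markers had medians of 0.11, 0.28 and 0.00, and all 7017 genes of 0.00, 0.03 and -0.04. Most lists outside lipid metabolism were highest at week 6 too. Skeletal muscle markers had medians of -0.20, 0.17 and -0.07, and macrophage and leukocyte markers of 0.00, 0.22 and 0.01. Exceptions were amino acid and urea metabolism, antioxidant and selenoprotein genes, acute phase proteins, major urinary proteins, proteasome subunits and red blood cell markers. Week 6 was also the week with the fewest measured probes per array. The part of hepatocyte markers and of measured probes in the medians of the other lists was not tested.

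The same contrast in A/J mice, a strain that gains less weight on fat-rich diets, asked whether the differences depend on strain. It holds 28 high-fat and 30 low-fat A/J arrays of weeks 5 to 7, and the interaction of strain and diet was tested on 7086 probes. A single probe passed (0.0141%), and 556 (7.85%) had an unadjusted p under 0.05. The call was Eola1, whose difference was 1.35 ± 0.22 in C57 and -0.27 ± 0.24 in A/J, 1.63 ± 0.33 apart (limma adjusted p = 0.0180). A/J means were -2.40 (n = 27) and -2.08 (n = 24), so that in C57 on the high-fat diet the gene stood above both A/J groups. With consecutive arrays averaged this interaction had 0 calls.

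Scd1 and Kcnd2 were called in A/J as well, where 3 of 7086 probes were (0.0423%) and 559 (7.89%) had an unadjusted p under 0.05. Scd1 differed by 1.65 ± 0.22 in A/J (limma adjusted p = 2.61e-07) and Kcnd2 by 0.53 ± 0.12 (adjusted p = 0.0346), and Kif21a stood at 0.51 ± 0.12 (adjusted p = 0.0687). Secisbp2, at -0.11 ± 0.24 in A/J, had a C57 minus A/J value of -1.36 ± 0.33, which did not pass (adjusted p = 0.120). Ehhadh stood at 0.11 ± 0.15 in A/J, with a C57 minus A/J value of 0.48 ± 0.21 (adjusted p = 0.591). Of the 14 genes tested in A/J 9 had the sign seen in C57, and Trim30a was measured on too few A/J arrays. The share of all probes with a matching sign was not counted, for A/J or for the sets of arrays that follow.

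In C57 mice at weeks 1, 3 and 4, with 30 arrays per diet, 3 of 7442 probes were called (0.0403%), 673 (9.04%) had an unadjusted p under 0.05, and 0 of the 15 were among the calls. Scd1 stood there at 0.79 ± 0.18 and Kif21a at 0.65 ± 0.15 (limma adjusted p = 0.0611 for each), Kcnd2 at 0.23 ± 0.09, Eola1 at 0.31 ± 0.18, Ehhadh at 0.23 ± 0.12 and Secisbp2 at -0.25 ± 0.19. In 11 of the 15 genes the sign was that of weeks 5 to 7. For a change between the periods limma found 0 of 7442 probes past the threshold and 785 (10.5%) past an unadjusted p of 0.05. Its smallest adjusted p among the 15 was 0.184, for Eola1 (1.04 ± 0.25) and Secisbp2 (-1.22 ± 0.28).

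At weeks 9 to 11, with 28 high-fat and 29 low-fat C57 arrays, 18 of 7207 probes were called (0.25%), 4 of them among the 15, and 667 (9.25%) had an unadjusted p under 0.05. Kif21a differed by 1.17 ± 0.19 (limma adjusted p = 6.32e-05), Scd1 by 1.13 ± 0.19 (adjusted p = 0.000224), Gabra3 by -1.05 ± 0.19 (adjusted p = 0.000708) and Secisbp2 by -0.83 ± 0.20 (adjusted p = 0.0352). Kcnd2 stood at 0.45 ± 0.12 (adjusted p = 0.0541), Ehhadh at 0.29 ± 0.13 and Eola1 at 0.46 ± 0.23. Of 14 genes tested 13 had the same sign as at weeks 5 to 7, the exception being Ftsj3 at 0.10 ± 0.11. No probe of 7207 passed for a change between the periods in limma, while 542 (7.52%) had an unadjusted p under 0.05. Since the 15 genes were picked on their values at weeks 5 to 7, larger differences there than in other arrays are partly set by that choice.

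**Figure D4:**
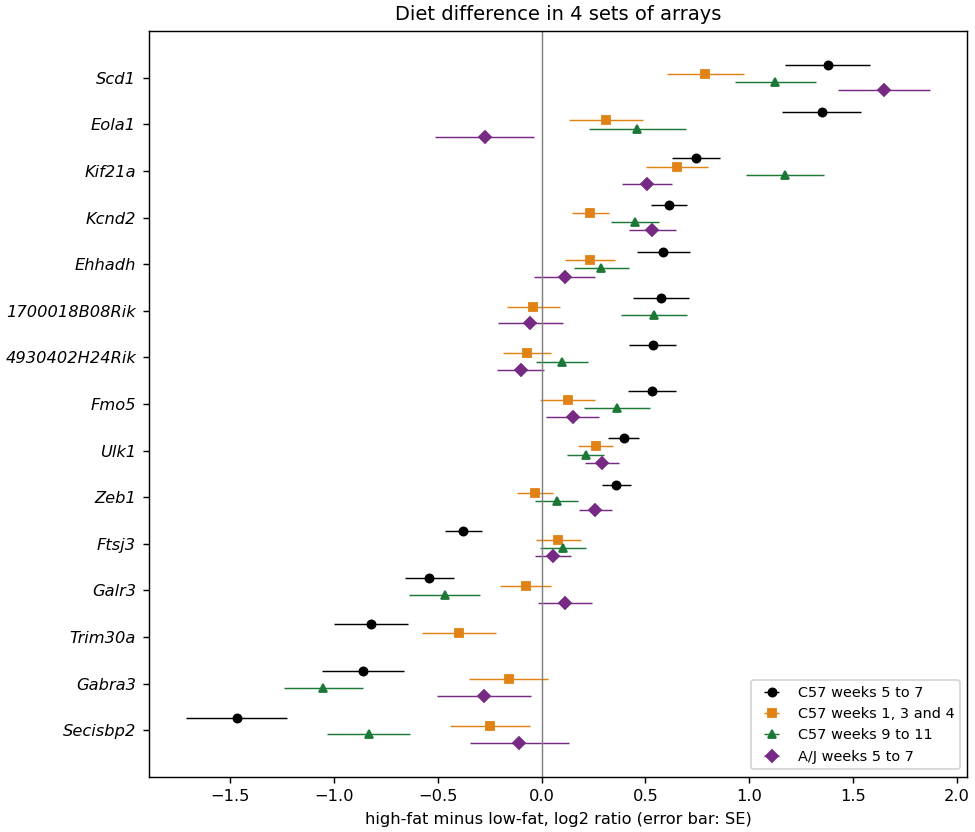
High-fat minus low-fat log2 difference, with its SE, of the 15 genes in C57 at weeks 5 to 7, at weeks 1, 3 and 4 and at weeks 9 to 11, and in A/J at weeks 5 to 7. Scd1 and Kif21a lie to the right of 0 in all 4 sets, and Eola1 lies at -0.27 in A/J.

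Week 0 arrays of C57 carry a diet in their labels as well, and few probes were measured on them. There the mean of Scd1 was 0.32 on 9 high-fat and -0.26 on 6 low-fat arrays, that of Kcnd2 -0.65 (n = 7) and -0.93 (n = 8), and that of Fmo5 -0.14 (n = 9) and -0.51 (n = 7). Eola1 had -2.51 (n = 3) and -2.27 (n = 4), the reverse of its later order. The week 0 difference of Scd1 was 0.58, against 0.55 at week 7. The difference had the sign of weeks 5 to 7 in 13 of the 14 genes with a value in both groups, of which several rest on 1 to 4 arrays, and no test was made. For week 0, the other C57 weeks and A/J, the share of all probes with a matching sign was not counted.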

How the data were processed

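The arrays are 2-colour spotted cDNA arrays, Cy5 for liver and Cy3 for the pooled reference, per the labels' protocols. The deposited values are linear ratios per probe whose mean is 1 on each array, read from the values. Image analysis, background correction and normalization by the authors are not given in the sources used here. Of 17280 positions 14711 have 1 gene symbol. Symbols were taken from the GRCm38.p6 gene table where the Entrez identifier of a probe was found there, as for 14416 probes. Ratios at or below 0 (0.530% of measured values) were treated as not measured, log2 was taken, and each array was centred on its median over the probes tested. Probes measured on at least 70% of arrays and 3 arrays of every group were tested in limma 3.58.1 (R 4.3.3) with diet and week as terms, Benjamini-Hochberg adjustment and a threshold of 0.05. Weekly values come from a fit of the 6 group means, and comparisons with other arrays from interaction terms. Identical columns were counted once. SE is limma's and SD is over arrays. The code was tested on simulated data.

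The genes named are the 12 largest rises and 12 largest falls past the threshold with 1 sign in all 3 weeks, up to 3 called members of each list, and any tested lipid gene. The members and lists were chosen with earlier results of these data known. Alternatives were other centring, quantile normalization, other filters, all 60 arrays, consecutive arrays averaged or as a block, weekly means, a replicate block, array weights, robust eBayes, left-out weeks and, added after seeing the data, left-out arrays.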

Additional observations from a re-analysis of the deposited data

Results flagged for a closer look

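Single arrays that stood apart from their group were looked for among the 15 genes and in the correlation with the median profile, over 96 groups of 5 to 10 values, of which chance alone would flag about 1 in 20. There were 12 such values, 5 of them from the 7 arrays with under 6000 measured probes. On the high-fat diet 4930402H24Rik stood at -0.65 at week 5 (array 49), Galr3 at -0.22 at week 5 (array 46), Fmo5 at 2.51 at week 6 (array 52), Scd1 at 0.47 at week 6 (array 60), Secisbp2 at -2.46 at week 6 (array 51) and Trim30a at -2.76 at week 7 (array 65). On the low-fat diet Ehhadh stood at -1.13 (array 46), Gabra3 at -1.01 (array 47) and Secisbp2 at 4.97 (array 46) at week 5, Fmo5 at -0.79 at week 6 (array 55), and Eola1 at -4.24 and Fmo5 at 1.30 at week 7 (array 67 for both). Without the 7 arrays with few measured probes limma called 17 of 7873 probes, 12 of them among the 15, and Gabra3, Ftsj3 and 1700018B08Rik were lost.

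The diet difference of Eola1 was 1.63 larger in C57 than in A/J by the interaction in limma. From week 5 to week 6 the diet difference changed by 1.36 for Tiam1 and by 3.22 for Grm8, both called in the test of diet by week and both chosen after their values were seen.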

How the results depend on the processing

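The count of 15 called probes became 27 after quantile normalization (17 higher, 10 lower, 14 shared with the 15) and 27 with array weights (19 higher, 8 lower, 14 shared). It was 5 without week 5 (3 higher, 2 lower), 5 without week 6 (3 higher, 2 lower) and 30 without week 7 (25 higher, 5 lower, 9 shared). For single weeks it was 1 (week 5), 1 (week 6) and 0 (week 7), and for weekly means 0. It stayed within 1.5 times under the others, the replicate block apart, with splits of 5 higher and 6 lower without centring, 17 and 3 with a filter of 90% of arrays (8 shared), 9 and 3 with all 60 arrays (9 shared) and 8 and 2 with consecutive arrays averaged (9 shared). With each array left out in turn it ran from 12 to 27, the highest without high-fat array 64 of week 7, and 12 genes passed in all 58 fits, Gabra3 in 44, 1700018B08Rik in 25 and Ftsj3 in 21. With consecutive arrays averaged the count at week 5 was 0, the strain interaction had 0 calls, and the change from weeks 5 to 7 to weeks 9 to 11 had 1 call. No gene of the 15 changed sign under any alternative, and Kcnd2 and Secisbp2 missed the threshold only with weekly means and in single weeks. Apart from single weeks and left-out arrays, the call held in 11 of 16 alternatives for 4930402H24Rik, 12 of 17 for Zeb1, 11 of 17 for Galr3 and Fmo5, 9 of 15 for Trim30a, 10 of 16 for Gabra3 and 8 of 17 for Ftsj3.

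Both diets carry the same running sample numbers, and a replicate block on them gave 8 calls (7 higher, 1 lower), all among the 15. Deviations of same-numbered arrays correlated from -0.28 to 0.31 over 28 pairs (12 above 0.1), with a median of 0.07, and those of differently numbered arrays had a median of -0.01 over 252 pairs (65 above 0.1). The number was the best match for 7 of 58 arrays. These values do not decide whether the numbers pair arrays. The labels tie the numbers to no shared mouse or day, so the block was kept as an alternative.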

Other observations

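Like the lipid lists, the lists of other liver functions had few or no calls in limma. Over all 7017 genes tested 9 were called higher and 5 lower, and 46.3% of differences were positive. At that share 0 calls in a list of this length does not set it apart. Of 19 genes of folding and stress in the endoplasmic reticulum 0 passed, with 12 positive and a median of 0.10, and Fkbp11, a prolyl isomerase (0.88 ± 0.23, adjusted p = 0.0973), and Dnajb9, a co-chaperone (0.41 ± 0.11, adjusted p = 0.102), had the smallest p. Of 15 genes of amino acid and urea metabolism 0 passed, with Ass1, the argininosuccinate synthase, at -0.46 ± 0.17 and Otc, the ornithine transcarbamylase, at 0.35 ± 0.17. Of 13 genes of glucose metabolism 10 were positive, with a median of 0.10 and 0 called. Genes were singled out here after their values were seen.

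Ribosomal protein genes had small differences, with 19 of 44 cytosolic (median -0.03) and 11 of 36 mitochondrial ones (median -0.06) positive and 0 called. The circadian clock genes were positive in 4 of 12 cases (median -0.07), respiratory chain genes in 25 of 50 (median 0.00), proteasome subunits in 13 of 25 (median 0.00), cell division genes in 8 of 16 (median -0.01) and acute phase proteins in 6 of 14 (median 0.00), each with 0 called. Both major urinary protein genes tested were positive (median 0.30). Markers of other cells had 0 calls too. Their medians were 0.09 for 13 genes of macrophages and leukocytes, 0.00 for 10 of stellate cells and matrix, 0.10 for 3 of endothelium, 0.05 for 6 of bile duct cells, -0.06 for 13 of skeletal muscle, -0.05 for 7 of adipose tissue and -0.01 for 9 of kidney, brain and testis, and the red blood cell gene Ank1 stood at 0.15.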
